A study of Homo sapiens with 18 samples.

Results

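Extracellular proteases are held in check by secreted inhibitors and by the receptors that clear them. A2M (alpha-2-macroglobulin) traps proteases of every class, and LRP1 takes the resulting complexes into the cell. The tissue inhibitors of metalloproteinases (TIMP1, TIMP2 and TIMP3) block matrix metalloproteinases such as MMP2, and TIMP2 together with the membrane-bound MMP14 also takes part in activating the MMP2 proenzyme. TFPI and TFPI2 are Kunitz-type inhibitors, TFPI of the tissue factor pathway that starts clotting and TFPI2 mainly of plasmin and related serine proteases. SERPINE2, a serpin, inhibits thrombin and plasminogen activators. In the brain these genes are known from glia, vessels and the remodelling of the matrix around invading glioma cells.

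The 10 genes are described here in KNS-42 cells, a glioma cell line that expressed the Cas9 nuclease, out of 58050 genes in the deposited table. They were chosen by measured values of the same libraries: A2M because it stood among the genes with the most reads, and TIMP2 and TFPI because they were lower with guide 395 in parental cells. The other members were taken as their relatives and partners. Values from that parental contrast are therefore given as a description, with no test.

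The study used 3 kinds of KNS-42 cells, all with Cas9 and all grown in puromycin. DDX3Yoe cells carried a codon-optimised DDX3Y, DDX3Xoe cells a codon-optimised DDX3X, and parental cells neither. Each kind received, by lentivirus, guide RNA 395, which targets the cells' own DDX3X gene for an RNA helicase, or a negative control guide against AAVS1, and RNA was taken on day 7. The 6 groups had 3 replicate libraries each, of 1 cell line, and the labels do not say whether replicates were separate cultures, so the p-values may rest on a technical spread only.

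Values are normalised reads, the authors' read counts divided by 1 size factor per library, from a kit that reads the 3' ends of transcripts. The 18 libraries held 5667609 to 13201602 reads on genes. DDX3X itself had 878, 739 and 653 normalised reads with guide 395 in DDX3Yoe cells, against 1379, 1557 and 1439 with AAVS1. In parental cells it had 861, 844 and 953 with guide 395, against 1780.5, 1923 and 1729 with AAVS1. In DDX3Xoe cells it had 1416, 716 and 578 with guide 395, against 668, 1504 and 1162 with AAVS1, so the replicate 1 libraries labelled DDX3Xoe ran against their guide labels, and log2 fold changes of guide 395 in DDX3Xoe cells are given with and without both of them. Of the glial and neural progenitor markers, SOX2, NES, VIM, GFAP, PTPRZ1, FABP7 and CD44 had reads in all 18 libraries, while OLIG2 and S100B were at 0 in all 18.

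With guide 395 in parental cells TFPI was lower and its relative TFPI2 higher, each without overlap between guides. Their promoters are shown for that reason. Each sequence is RefSeq's, from GRCh38.p14, and runs 5' to 3' from 250 bases before to 50 bases after an annotated start, on the minus strand. TFPI is from chr2:187554386-187554685, at a start inside the gene as GENCODE 29 spans it. TFPI2 is from chr7:93890704-93891003. Capitals mark matches to the motifs searched.
TFPI: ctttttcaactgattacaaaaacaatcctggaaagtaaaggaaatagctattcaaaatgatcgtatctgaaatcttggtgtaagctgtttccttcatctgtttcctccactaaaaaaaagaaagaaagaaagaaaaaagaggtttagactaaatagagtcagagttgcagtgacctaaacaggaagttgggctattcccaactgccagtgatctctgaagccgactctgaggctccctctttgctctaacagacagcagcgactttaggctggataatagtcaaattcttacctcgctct
TFPI2: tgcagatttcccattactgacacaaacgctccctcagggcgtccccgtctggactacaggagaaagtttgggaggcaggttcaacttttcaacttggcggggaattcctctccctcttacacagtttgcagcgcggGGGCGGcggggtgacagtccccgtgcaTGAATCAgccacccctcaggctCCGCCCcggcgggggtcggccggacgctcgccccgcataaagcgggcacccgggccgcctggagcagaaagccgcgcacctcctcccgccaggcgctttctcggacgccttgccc

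Both strands were searched for a TATA box (TATAAA), a GC box (GGGCGG), a STAT element (TTCNNNGAA), an AP-1 element (TGANTCA) and an interferon response core (GAAA, any 2 bases, GAAA). The TFPI window held no match to any of these. The TFPI2 window held 2 GC boxes, 1 of them on the other strand, and 1 match to the AP-1 letters, with no overlap between them. Those letters leave the middle base open, and the match reads TGAATCA, so it is a match by letters only. Among 35116 RefSeq promoters of this length, 45.0% held a GC box, 7.71% a match to the same open AP-1 letters and 11.5% a TATA box. A STAT element was held by 7.66% and an interferon response core by 3.57%. The G and C content was 39.3% in the TFPI window and 65.3% in the TFPI2 window, against a median of 58.7% over all promoters. Of the 10 genes, 7 had an entry in that table, and A2M, TIMP2 and MMP2 had none.

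Across the 18 libraries the 10 genes spanned a wide range of levels, which the plot of values by library shows. A read count from 3' ends does not grow with transcript length. A2M ranked 31st of the 58050 genes by its mean of 19260 normalised reads, and TIMP2 ranked 49th at 12275. TIMP1 ranked 880th, TFPI2 1704th, MMP14 3241st, SERPINE2 3530th and TFPI 4772nd. LRP1 ranked 9120th and TIMP3 14076th, and MMP2, ranked 18138th, had too few reads to be tested. Thus 9 of the 10 genes passed the filter, which asked for 10 or more normalised reads in 3 or more libraries, as did 15228 genes in all.

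**Figure D1:**
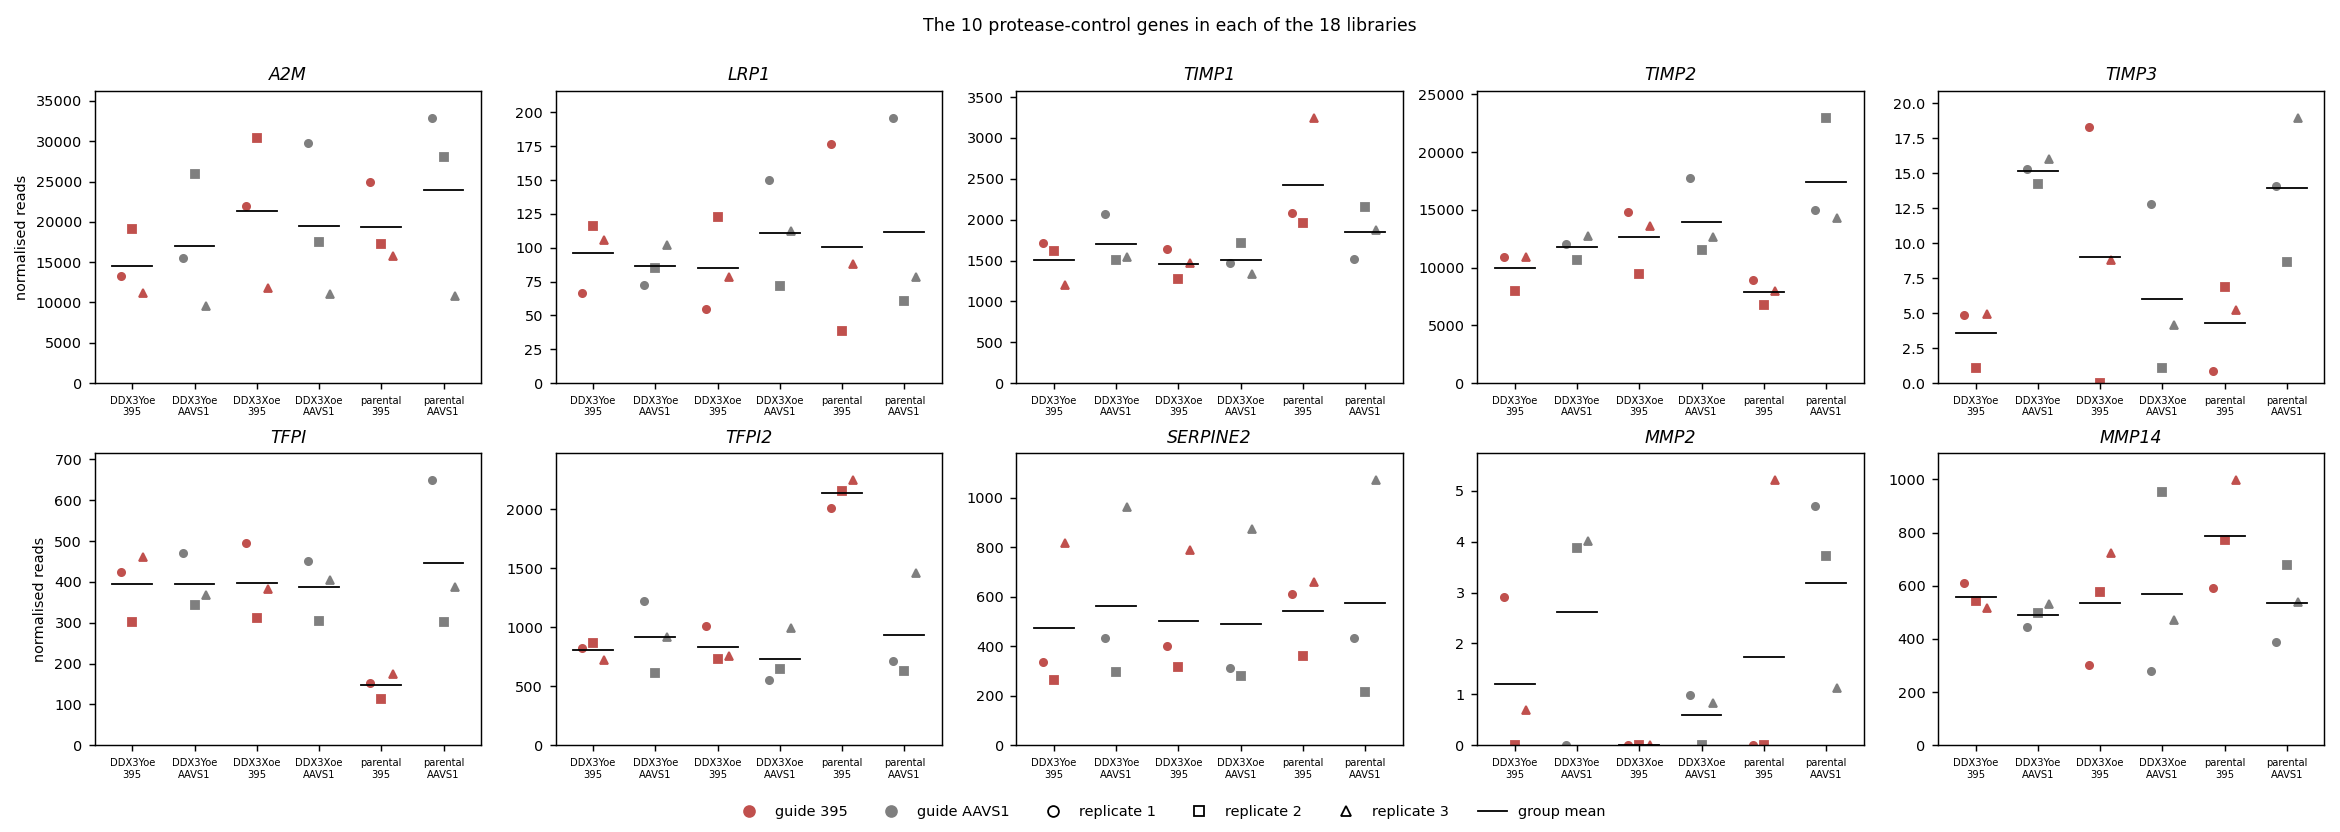
Normalised reads (vertical axes, from 0) of the 10 genes in each library, by group, with guide 395 in red and AAVS1 in grey, replicate numbers 1 to 3 as circle, square and triangle, and the group mean as a bar. In parental cells TIMP2 and TFPI with guide 395 lie below, and TFPI2 above, every parental AAVS1 library, whereas in DDX3Yoe and DDX3Xoe cells the guides overlap for these 3 genes. TIMP3, with few reads, lies below AAVS1 with guide 395 in both parental and DDX3Yoe cells, and overlaps it in DDX3Xoe cells.

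A2M, the broad protease trap, lies on chromosome 12 at 9067664 to 9116229 on the minus strand (GRCh38, ENSG00000175899). It had 13225, 19159 and 11179 normalised reads with guide 395 in DDX3Yoe cells, against 15498, 25969 and 9516 with AAVS1. It had 21968, 30410.2 and 11733 with guide 395 in DDX3Xoe cells, against 29819.5, 17488 and 11082 with AAVS1. Parental cells held 24912, 17257 and 15799 with guide 395, against 32917, 28003 and 10749 with AAVS1. The guides overlapped in all 3 kinds of cells, and the spread lay mostly within groups: the third value is the lowest in each of the 6. The log2 fold change, of normalised reads + 1 here and throughout, was -0.15 in DDX3Yoe cells (95% interval -1.17 to 0.88) and 0.15 in DDX3Xoe cells (-0.88 to 1.17), and neither passed an adjusted p of 0.05 in limma, a moderated linear model fitted to all tested genes (adjusted p = 1 for both). Without both replicate 1 libraries the DDX3Xoe value was 0.44. In parental cells the difference was -0.18. A2M alone made up 0.108 to 0.375% of all normalised reads of a library.

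LRP1, the endocytic receptor for A2M complexes, runs from 57128493 to 57213351 of chromosome 12, plus strand (ENSG00000123384). It had 66.9, 116 and 106 normalised reads with guide 395 in DDX3Yoe cells, against 72.8, 85.2 and 102 with AAVS1. DDX3Xoe cells held 54.8, 123 and 78.1 with guide 395, against 149.7, 71.4 and 112 with AAVS1. The parental libraries had 177, 38.4 and 87.6 with guide 395, against 196, 60.8 and 78.1 with AAVS1. The ranges overlapped in every line, and in parental cells the replicate 1 library was the highest with either guide. The log2 fold change was 0.12 in DDX3Yoe cells (-0.95 to 1.20) and -0.39 in DDX3Xoe cells (-1.47 to 0.69, limma adjusted p = 1 for both), and the DDX3Xoe value was 0.13 without both replicate 1 libraries. The parental value was -0.21.

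TIMP2 (ENSG00000035862, chromosome 17 at 78852977 to 78925387, minus strand) was the most read of the TIMP genes. In parental cells it had 8883, 6751 and 8001 normalised reads with guide 395, against 14982, 22970.2 and 14286 with AAVS1. All 3 guide 395 libraries lay below all 3 AAVS1 libraries, with means of 7878 ± 1071 and 17412 ± 4826 (SD, n = 3 each) and a log2 difference of -1.12. This difference chose the gene, so no test is given. In such bulk RNA, fewer cells of a type and less RNA per cell cannot be told apart. Reads of mitochondrial genes moved in the same libraries, at 7.78 to 11.1% of reads with guide 395 against 11.3 to 16.5% with AAVS1 in parental cells. The summed level of the 9 glial and neural progenitor markers was also lower there without overlap, at 42142 to 45708 normalised reads with guide 395 against 46760.3 to 75279 with AAVS1. Of these markers SOX2 averaged 12602.5 with guide 395 and 19173 with AAVS1, and VIM averaged 20519 and 24510. In the same order GFAP averaged 2399 and 4482, PTPRZ1 1974 and 3831, and NES 212 and 682. CD44 (6540 and 6727) and FABP7 (80.7 and 88.9) differed less, and OLIG2 and S100B were at 0. The part of the mitochondrial reads or of these markers in the TIMP2 and TFPI values was not tested.

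In the overexpressing lines, which the choice did not use, TIMP2 had 10915, 7977 and 10946 normalised reads with guide 395 in DDX3Yoe cells, against 12049, 10642 and 12756 with AAVS1. The DDX3Xoe libraries had 14835, 9433 and 13594 with guide 395, against 17784, 11488 and 12663 with AAVS1. The ranges overlapped in both lines. Its log2 fold change was -0.26 in DDX3Yoe cells (-0.84 to 0.32) and -0.15 in DDX3Xoe cells (-0.73 to 0.43), with a limma adjusted p of 1 in each. Whether the guide effect differed between these lines and parental cells was not tested, since the parental value had picked the gene. The DDX3Xoe value was -0.091 without both replicate 1 libraries.

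TIMP1 (ENSG00000102265), from base 47582313 to 47586789 of the plus strand of chromosome X, is the soluble inhibitor often raised by injury and inflammation. It had 1715, 1620.1 and 1196 normalised reads with guide 395 in DDX3Yoe cells, against 2069, 1502 and 1543 with AAVS1. In DDX3Xoe cells it had 1644, 1273 and 1472 with guide 395, against 1469.7, 1716 and 1334 with AAVS1. Parental cells held 2084, 1954 and 3248 with guide 395, against 1521, 2157 and 1872 with AAVS1. The parental replicate 3 library with guide 395 was the highest of all 18, and the guides overlapped in each line. On the log2 scale the fold change was -0.18 in DDX3Yoe cells (-0.68 to 0.32), -0.042 in DDX3Xoe cells (-0.54 to 0.46, limma adjusted p = 1 for both) and 0.37 in parental cells. The DDX3Xoe value was -0.14 without both replicate 1 libraries.

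TIMP3 (ENSG00000100234, chromosome 22 at 32801701 to 32863043, plus strand), which binds to the matrix after secretion, had between 0 and 21 reads in a library. In DDX3Yoe cells it had 4.85, 1.09 and 4.91 normalised reads with guide 395, from 5, 1 and 7 reads, against 15.3, 14.2 and 16.0 with AAVS1, from 16, 11 and 16 reads. DDX3Xoe cells held 18.3, 0 and 8.78 normalised reads with guide 395, against 12.8, 1.07 and 4.13 with AAVS1. The parental libraries had 0.879, 6.89 and 5.21 with guide 395, against 14.1, 8.68 and 19.0 with AAVS1. Guide 395 lay wholly below AAVS1 in DDX3Yoe cells and in parental cells, and overlapped it in DDX3Xoe cells. In DDX3Yoe cells the log2 fold change of -1.96 had an interval of -3.99 to 0.074, an unadjusted limma p of 0.058 and an adjusted p of 1. In DDX3Xoe cells it was 0.12 (-1.91 to 2.15, limma adjusted p = 1), and -0.058 without both replicate 1 libraries. The parental value was -1.66, and at this depth a difference between the lines was not detectable.

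TFPI (ENSG00000003436, chromosome 2 at 187464230 to 187565760, minus strand), the inhibitor of tissue factor-started clotting, was also chosen on its parental values. In parental cells it had 152, 113 and 175 normalised reads with guide 395, against 649.9, 301 and 388 with AAVS1. Every guide 395 library was below every AAVS1 library, with means of 147 ± 31.4 and 447 ± 181 (SD, n = 3 each) and a log2 difference of -1.55. Of the 5 pericyte and fibroblast markers (COL1A1, PDGFRB, RGS5, DCN and LUM) none was at 0 throughout, and their summed level moved in the same libraries, at 86.6 to 161 normalised reads with guide 395 against 273 to 440 with AAVS1. The fall of this sum lay in COL1A1, which averaged 52.0 normalised reads with guide 395 and 288 with AAVS1, and in RGS5, whose identifiers averaged 26.0 and 5.66 with guide 395, against 46.7 and 8.03 with AAVS1. PDGFRB averaged 19.2 with guide 395 and 20.1 with AAVS1, whereas DCN (9.48 against 8.17) and LUM (7.66 against 4.54) were higher with guide 395. Their part in the TFPI values was not tested.

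In DDX3Yoe cells TFPI had 424, 303 and 461 normalised reads with guide 395, against 471, 343 and 368 with AAVS1. The DDX3Xoe libraries had 496, 312 and 383 with guide 395, against 450.2, 305 and 405 with AAVS1. All 12 libraries of these lines lay above the 3 parental libraries with guide 395, and the guides overlapped within each line. The log2 fold change was -0.0020 in DDX3Yoe cells (-0.62 to 0.62) and 0.030 in DDX3Xoe cells (-0.59 to 0.65), with a limma adjusted p of 1 in each. Without both replicate 1 libraries the DDX3Xoe value was -0.024. Whether the guide effect differed from that in parental cells was not tested.

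TFPI2 (ENSG00000105825, chromosome 7 at 93885396 to 93890991, minus strand), a matrix-bound inhibitor of plasmin, had the opposite pattern in parental cells. There it had 2009, 2158 and 2249 normalised reads with guide 395, against 712, 626 and 1463 with AAVS1. All 3 guide 395 libraries lay above all 3 AAVS1 libraries, with means of 2139 ± 121 and 934 ± 460.1 (SD, n = 3 each) and a log2 difference of 1.30, given as a description since it comes from the contrast used for the choice. In DDX3Yoe cells it had 828, 864 and 722 with guide 395, against 1224, 609 and 919 with AAVS1. In DDX3Xoe cells it had 1007, 733 and 758 with guide 395, against 551, 644 and 994 with AAVS1. None of these 12 libraries reached the parental guide 395 values, and the guides overlapped in both lines. Its log2 fold change was -0.14 in DDX3Yoe cells (-0.79 to 0.52) and 0.22 in DDX3Xoe cells (-0.43 to 0.88, limma adjusted p = 1 for both), and the DDX3Xoe value turned to -0.10 without both replicate 1 libraries.

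The ratios between relatives within a library are given as a description. TFPI and TIMP2, the genes divided by, were chosen because they were lower with guide 395 in parental cells. Higher ratios in those libraries follow in part from that choice. The ratio of TFPI2 to TFPI reads was 13.2, 19.1 and 12.8 with guide 395 in parental cells, against 1.10, 2.08 and 3.77 with AAVS1. In DDX3Yoe cells it was 1.95, 2.85 and 1.57 with guide 395, against 2.60, 1.77 and 2.50 with AAVS1. For DDX3Xoe cells it was 2.03, 2.35 and 1.98 with guide 395, against 1.22, 2.12 and 2.46 with AAVS1. The 3 parental guide 395 libraries stood above all 15 others. The ratio of TIMP1 to TIMP2 reads was 0.235, 0.289 and 0.406 with guide 395 in parental cells, against 0.102, 0.0939 and 0.131 with AAVS1. It lay between 0.0826 and 0.203 in the 12 libraries of the overexpressing lines, below all 3 parental libraries with guide 395.

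**Figure D2:**
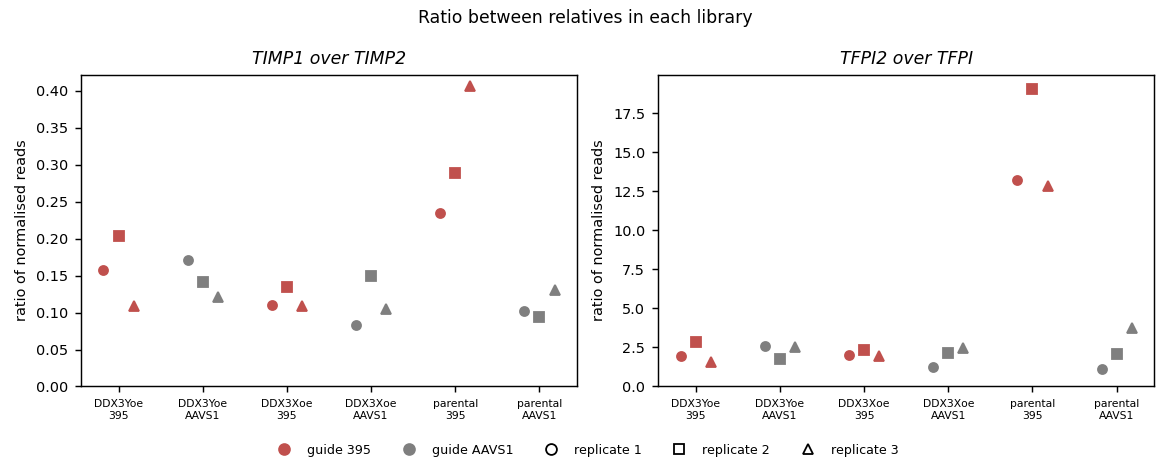
Ratio of normalised reads of TIMP1 over TIMP2 (left) and TFPI2 over TFPI (right) in each library, by group, with guide 395 in red and AAVS1 in grey and replicate numbers 1 to 3 as circle, square and triangle. The 3 parental libraries with guide 395 are the highest in both panels, at 0.235 to 0.406 and 12.8 to 19.1. TIMP2 and TFPI were chosen for their lower values in these libraries.

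SERPINE2 (ENSG00000135919, chromosome 2 at 223975112 to 224039319, minus strand), an inhibitor of thrombin and urokinase made by glia, had 334, 262 and 819 normalised reads with guide 395 in DDX3Yoe cells, against 434, 295 and 962 with AAVS1. DDX3Xoe cells held 401, 317 and 789 with guide 395, against 312, 279 and 875 with AAVS1. Parental cells held 609, 359 and 661 with guide 395, against 435, 215 and 1072 with AAVS1. The third value is the highest of its group in all 6 groups, and the guides overlapped in each line. On the log2 scale the fold change was -0.26 in DDX3Yoe cells (-1.51 to 0.99) and 0.13 in DDX3Xoe cells (-1.12 to 1.38, limma adjusted p = 1 for both), or 0.018 in DDX3Xoe cells without both replicate 1 libraries. The parental value was 0.18.

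MMP14 (ENSG00000157227, chromosome 14 at 22836557 to 22849027, plus strand), the membrane-type protease that activates MMP2, had 612, 544 and 516 normalised reads with guide 395 in DDX3Yoe cells, against 446, 497 and 530.0 with AAVS1. The DDX3Xoe libraries had 301, 576 and 724 with guide 395, against 281, 953 and 471 with AAVS1. The parental libraries had 592, 770.3 and 998 with guide 395, against 389, 677 and 538 with AAVS1. The guides overlapped in each line, and the DDX3Yoe libraries were closest together. The log2 fold change was 0.18 in DDX3Yoe cells (-0.61 to 0.97), -0.0018 in DDX3Xoe cells (-0.79 to 0.79, limma adjusted p = 1 for both) and 0.56 in parental cells. The DDX3Xoe value was -0.054 without both replicate 1 libraries.

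MMP2 (ENSG00000087245, chromosome 16 at 55389700 to 55506691, plus strand), the gelatinase that MMP14 and TIMP2 act on, had at most 7 reads in a library. It had 3, 0 and 1 reads with guide 395 in DDX3Yoe cells, against 0, 3 and 4 with AAVS1. In DDX3Xoe cells it had 0, 0 and 0 reads with guide 395, against 1, 0 and 1 with AAVS1. In parental cells it had 0, 0 and 5 reads with guide 395, against 7, 3 and 1 with AAVS1. A count of 0 allows up to 3 reads in a library, by counting error alone, so no difference was detectable at this depth.

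Set side by side, none of the 9 tested genes was called with guide 395 in DDX3Yoe cells or in DDX3Xoe cells, where 0% of the 15228 genes were called by limma at an adjusted p under 0.05. The genes with an unadjusted limma p under 0.05 numbered 153 (1.00%) in DDX3Yoe cells and 315 (2.07%) in DDX3Xoe cells, none of them a member. Over the 7 tested comparisons this share was 0.893 to 2.64%. All lie below the fraction of 0.05 that no effect would give, so the lack of calls does not show an absence of change. The edgeR and DESeq2 fits also called 0 in each line. In DDX3Yoe cells 1 of the 9, TIMP3, had guides that did not overlap, against 7.49% of all genes, 3.69% in the lower direction. In DDX3Xoe cells 0 of the 9 did, against 3.87% of all genes. The difference in guide effect between DDX3Yoe and DDX3Xoe cells, tested as an interaction, also called 0% of genes, with 227 at an unadjusted p under 0.05. For the members that difference ranged from -2.08 for TIMP3 (-4.95 to 0.79) to 0.52 for LRP1 (-1.01 to 2.04), with a limma adjusted p of 1.00 for each of the 9. It was -0.11 for TIMP2 (-0.93 to 0.71) and -0.032 for TFPI (-0.91 to 0.85). Without both replicate 1 libraries labelled DDX3Xoe it was -1.90 for TIMP3, -0.0040 for LRP1, -0.17 for TIMP2 and 0.022 for TFPI.

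In parental cells 4 of the 9 had guides that did not overlap, with TIMP2, TIMP3 and TFPI lower and TFPI2 higher with guide 395. There 20.6% of all genes did not overlap, 10.7% higher and 9.86% lower. By the limma fit 1.78% of genes were called in parental cells, 0.978% higher and 0.801% lower. These counts describe the contrast that picked the genes and are read as no more than that.

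**Figure D3:**
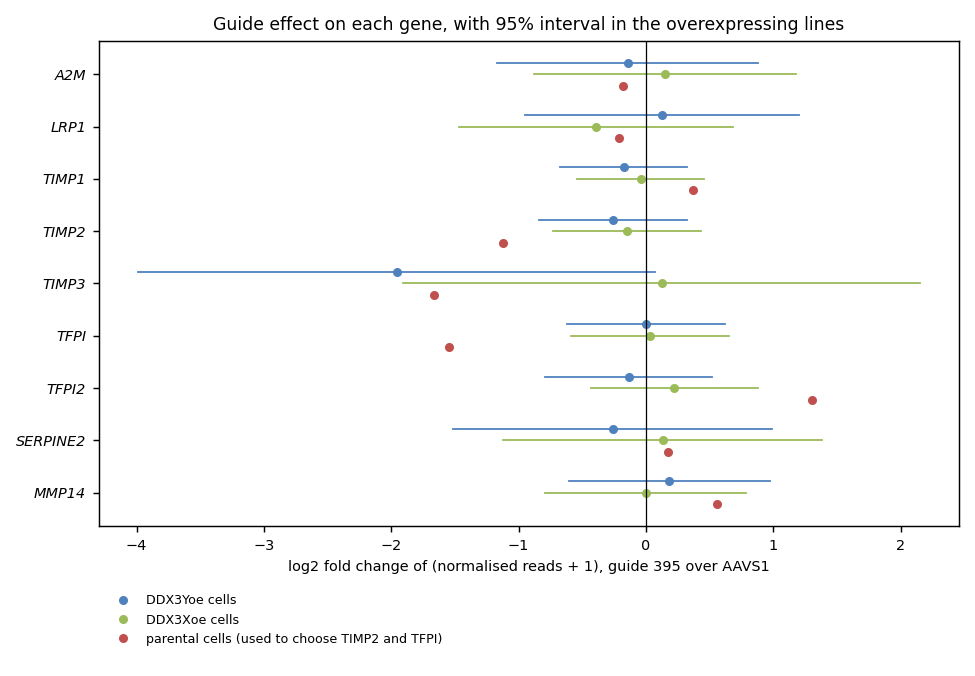
Log2 fold change of normalised reads + 1, guide 395 over AAVS1 (horizontal axis), for the 9 tested genes in DDX3Yoe, DDX3Xoe and parental cells, with 95% intervals from limma for the overexpressing lines and none for parental cells. Every interval of the overexpressing lines includes 0, and the parental points, among them TIMP2 (-1.12) and TFPI (-1.55), carry none because that contrast chose these genes.

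Between the lines themselves no tested member passed the test. DDX3Yoe over DDX3Xoe cells, both with AAVS1, gave log2 fold changes from -0.30 for LRP1 to 1.62 for TIMP3 (-0.41 to 3.65). TIMP3 was the 1 of the 9 whose groups did not overlap, against 4.21% of all genes, 2.02% in the higher direction, and its value was 2.31 without the replicate 1 libraries labelled DDX3Xoe. With guide 395 the same lines gave -0.49 for A2M (-1.52 to 0.54) to 0.21 for LRP1 (-0.87 to 1.29), and 0 of 9 did not overlap, against 7.26% of all genes. None was called, limma adjusted p = 1.00 for each, and 0% of all genes were called in either comparison, with 350 genes at an unadjusted p under 0.05 with guide 395 and 136 with AAVS1. Without both replicate 1 libraries, A2M turned to 0.17 under AAVS1, and under guide 395 LRP1 turned to -0.064, TIMP3 to 0.41, TFPI2 to 0.11 and MMP14 to -0.22.

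Against parental cells with AAVS1, DDX3Yoe cells gave -0.46 for A2M (-1.48 to 0.57) to 0.18 for TIMP3, and DDX3Xoe cells gave -1.44 for TIMP3 (-3.47 to 0.59) to 0.12 for LRP1, over the 7 genes that could be tested. None was called (limma adjusted p = 1.00 for each), and 0% of all genes were, with 402 and 150 genes at an unadjusted p under 0.05 for DDX3Yoe and DDX3Xoe cells. TIMP2 and TFPI are described only, since their parental AAVS1 libraries entered the choice. TIMP2 with AAVS1 was at 11816 ± 1076 in DDX3Yoe cells and 17412 ± 4826 in parental cells (SD, n = 3 each), a log2 difference of -0.53. All 3 DDX3Yoe libraries lay below the parental ones. It was the 1 of the 9 genes without overlap there, against 8.76% of all genes, 3.78% in the lower direction. Its difference was -0.31 between DDX3Xoe and parental cells, where 0 of 9 did not overlap against 3.13% of all genes. For TFPI the differences from parental cells were -0.12 in DDX3Yoe cells and -0.15 in DDX3Xoe cells. Without both replicate 1 libraries labelled DDX3Xoe, LRP1 turned to -0.12, SERPINE2 to 0.089 and MMP14 to 0.36 between DDX3Xoe and parental cells, and the untested values were -0.50 for TIMP2 and -0.27 for TFPI.

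The order of the 6 groups by mean differed between the genes, and is given here for TFPI, TFPI2, TIMP2 and A2M. TFPI ran from 147 ± 31.4 normalised reads in parental cells with guide 395, through means of 387 to 397 in all 4 groups of overexpressing cells, to 447 ± 181 in parental cells with AAVS1 (SD, n = 3 each). Only the lowest group stood apart from its neighbour. TFPI2 ran from 729.6 ± 234 in DDX3Xoe cells with AAVS1 to 2139 ± 121 in parental cells with guide 395, and the highest group was the one that stood apart. TIMP2 ran from 7878 ± 1071 in parental cells with guide 395, next to 9946 ± 1706 in DDX3Yoe cells with guide 395, which it overlapped, up to 17412 ± 4826 in parental cells with AAVS1. A2M ran from 14521 ± 4145 in DDX3Yoe cells with guide 395 to 23889.5 ± 11642 in parental cells with AAVS1, and all 6 groups overlapped.

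A2M and SERPINE2 varied with the replicate number in every group. The library numbered 3 had the lowest A2M value in 6 of 6 groups, at 0.353 to 0.749 times the mean of numbers 1 and 2. The same libraries had the highest SERPINE2 value in 6 of 6 groups, at 1.37 to 3.30 times that mean. Over all tested genes, number 3 was lowest in every group for 246 (1.62%) and highest for 251 (1.65%). None of the other 8 genes had this pattern. The labels do not say what a replicate number stands for, and its part in these values was not tested.

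**Figure D4:**
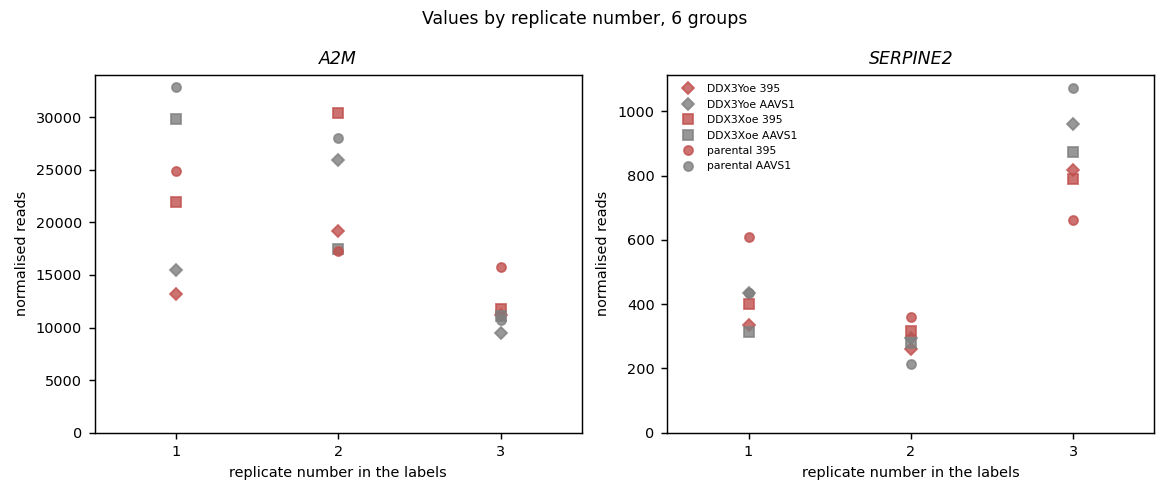
Normalised reads of A2M (left) and SERPINE2 (right), from 0, against the replicate number in the labels, with guide 395 in red, AAVS1 in grey and the line shown by the symbol. The 6 libraries numbered 3 hold A2M values of 9516 to 15799 and SERPINE2 values of 661 to 1072.

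The genes whose log2 values most resembled those of A2M, TIMP2 and TFPI over the 18 libraries are given as a description, since they are the 5 highest of 15228 for each and the libraries share groups and replicate numbers. For A2M they were DDR1, a collagen receptor kinase (Pearson r = 0.918, Spearman rho = 0.934), AMBN (0.913, 0.905), NDFIP1 (0.906, 0.866), the cannabinoid receptor CNR1 (0.902, 0.909) and CSTF2T (0.901, 0.880). With group means removed the r values for A2M were 0.914 to 0.951. For TIMP2 they were the ribosomal protein genes RPL37A (r = 0.906, rho = 0.825), RPLP2 (0.904, 0.738) and RPS19 (0.903, 0.781), the mitochondrial MT-CO3 (0.902, 0.806) and AC104958.2 (0.895, 0.864), with r of 0.743 to 0.907 after removing group means. Reads of ribosomal protein genes may be shared with their pseudogenes, so these are uncertain. For TFPI they were JAKMIP2-AS1 (r = 0.900, rho = 0.668), the collagen gene COL1A1 (0.894, 0.569), the receptor kinase gene NTRK3 (0.882, 0.645), SNRNP200 (0.868, 0.641) and MYH10 (0.865, 0.868). Here r was 0.452 to 0.682 with group means removed, and 0.707 to 0.752 without the 2 libraries farthest from the TFPI median.

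Of 141 other genes of extracellular protease control in 8 lists, 86 were tested. With guide 395, 0 of the 86 were called in DDX3Yoe cells and 0 in DDX3Xoe cells, with list-wide median log2 fold changes of 0.066 and -0.056 against -0.0021 and -0.016 over all genes. The parental values are given as a description only, since the lists were chosen with earlier results of these data known. In parental cells 2 of the 86 were called, both higher, against 1.78% of all genes, with a median of 0.028 against 0.017. They were SERPING1, the complement C1 inhibitor, at 1346 ± 178 normalised reads with guide 395 and 198 ± 16.9 with AAVS1 (SD, n = 3 each), and CTSS, the lysosomal protease cathepsin S, at 263 ± 111 and 54.2 ± 21.5. SERPING1 was at 256 ± 205 with guide 395 and 96.1 ± 7.59 with AAVS1 in DDX3Yoe cells, a log2 fold change of 1.11 with a limma adjusted p of 1.

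By list, the 8 tested matrix metalloproteinases had median log2 fold changes of 0.0054 in DDX3Yoe, -0.18 in DDX3Xoe and -0.047 in parental cells, with none called. The 18 ADAM and ADAMTS proteases had medians of -0.026, 0.11 and -0.048 in the same order of lines, and none was called. The list of other metalloproteinase inhibitors and alpha-macroglobulins had 4 tested genes, TIMP4, RECK, CD109 and PZP. Its medians were -0.030, -0.49 and -0.92. All 4 were below 0 in parental and DDX3Xoe cells, and 2 of 4 in DDX3Yoe cells. The parental log2 differences were -1.52 for TIMP4 and -1.94 for PZP, but -0.33 for RECK and -0.25 for CD109. TIMP4 was at 38.4 ± 12.9 normalised reads with guide 395 and 119 ± 54.2 with AAVS1 in parental cells, without overlap. PZP, a close relative of A2M, was at 10.02 ± 9.89 and 33.4 ± 19.4 (SD, n = 3 each). For PZP, RECK and CD109 the guides overlapped there. In DDX3Yoe cells TIMP4 was at 101 ± 46.7 with guide 395 and 92.8 ± 78.2 with AAVS1. The list of the LDL receptor family, to which LRP1 belongs, also held partners such as MRC2 and LRPAP1. Its 13 tested genes had medians of 0.15, -0.033 and 0.030.

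Among the serine and cysteine classes, the 7 tested serpins had medians of 0.076 in DDX3Yoe, -0.13 in DDX3Xoe and 0.21 in parental cells. The 6 Kunitz and other serine protease inhibitors had medians of -0.023, -0.074 and -0.12 in that order of lines. Those of the 13 cathepsins and cystatins were 0.12, -0.18 and 0.23. The list of plasminogen and clotting genes also held other proteases, such as FURIN, DPP4 and HTRA1. Its 17 tested genes had medians of 0.12, -0.033 and 0.066. Apart from SERPING1 and CTSS none was called in any line. Of the 84 list genes still tested without both replicate 1 libraries labelled DDX3Xoe, 0 were called in that line, and their median was 0.046. The DDX3Xoe medians were then -0.21 for 7 matrix metalloproteinases, 0.14 for 17 ADAM and ADAMTS proteases, -0.33 for the serpins and -0.21 for the cathepsins and cystatins. Medians turned above 0 for the LDL receptor family and partners (0.14) and the plasminogen and clotting list (0.35). For the Kunitz and other serine protease inhibitors the median also did, at 0.084. The other metalloproteinase inhibitors and alpha-macroglobulins had a median of -0.39, with 3 of 4 below 0. In parental cells 13 of the 86 genes did not overlap between guides, against 6 in DDX3Yoe and 3 in DDX3Xoe cells, beside the 20.6, 7.49 and 3.87% of all genes given above.

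**Figure D5:**
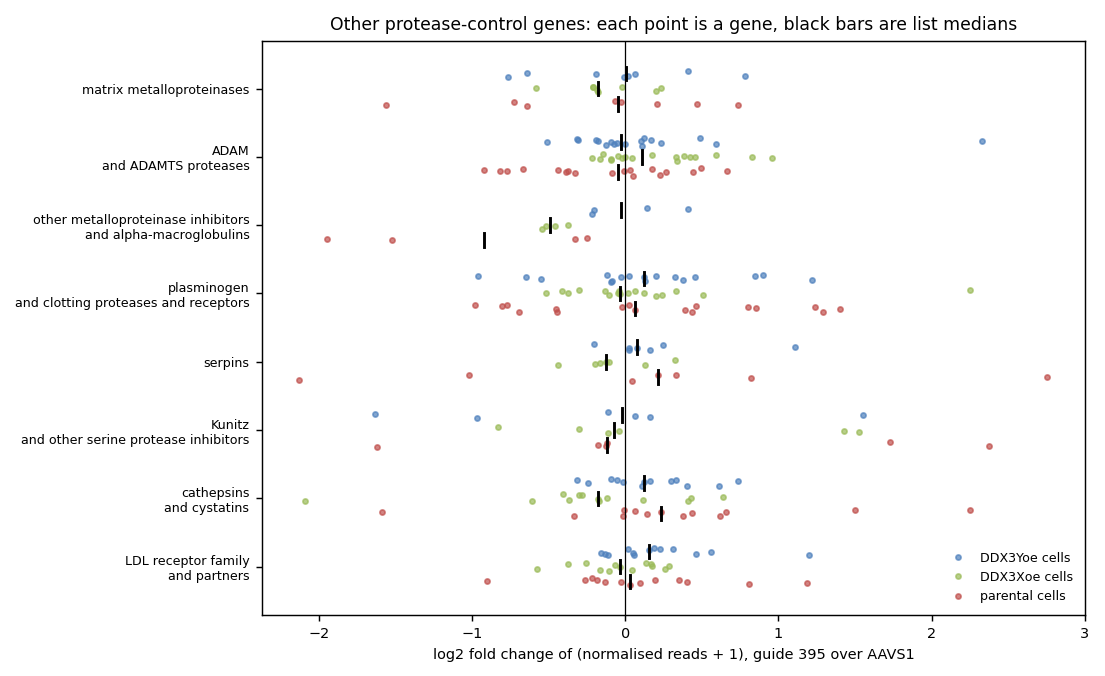
Log2 fold change of normalised reads + 1, guide 395 over AAVS1 (horizontal axis), of the 86 tested genes in 8 lists, each point a gene and each black bar a list median, for DDX3Yoe, DDX3Xoe and parental cells. The list that holds TIMP4, RECK, CD109 and PZP lies below 0 in parental cells (median -0.92) and DDX3Xoe cells (-0.49). In DDX3Yoe cells 2 of its 4 tested genes lie above 0 and 2 below.

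Several of the genes overlap others, and the sources used here do not give the strand setting of the read counting. The overlapping genes had few reads: A2M-AS1 averaged 6.65 normalised reads over the libraries, STAT6 (overlapping LRP1) 11.1, SYN1 (overlapping TIMP1) 12.5, CEP295NL (overlapping TIMP2) 4.11, SYN3 (overlapping TIMP3) 1.71 and AC002076.1 (overlapping TFPI2) 13.7. TIMP3 has so few reads that even this SYN3 level could bear on its values, which are therefore uncertain. Of the overlapping genes named, only CEP295NL lies on the same strand as its member. In values not matched by library, STAT6 reached 48.3 normalised reads, and LRP1 went down to 38.4 in the parental guide 395 replicate 2 library. The LRP1 values are therefore uncertain in this respect too.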

How the data were processed

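Expression was measured by 3' mRNA sequencing of total RNA in 18 libraries, 3 in each of 6 groups taken from the sample labels. The deposited values are a normalised signal: the authors divided the counts of each library by its size factor. Dividing by the smallest step gave whole reads for 100% of values within 0.01. Per the submitters' processing notes, featureCounts 1.5.1, RSEM 1.3.0, STAR 2.5.2b and limma were used with GRCh38, in roles not given in the sources used here. Symbols and positions came from GENCODE 29, which held 57446 of 58050 identifiers, and promoters from RefSeq. Totals ranged from 5667609 to 13201602 reads, and intervals and limits for counts of 0 cover counting error only.

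Log2(normalised value + 1) was fitted with limma 3.58.1 in R 4.3.3, with 6 group means, 12 residual degrees of freedom and an intensity trend, over the 15228 genes that reached 10 in 3 or more libraries. A call was an adjusted p under 0.05, by the Benjamini-Hochberg method over all of them. The procedure was run on simulated counts with the same relative spread for every gene and no effect of the replicate number. Only large changes in well-read genes were put in, so this checked the working of the procedure. It does not give the power for small changes in these data. The whole reads were also tested with edgeR 4.0.16 and DESeq2 1.42.0, and other alternatives are in the closing section. Members and lists were chosen with earlier results of these data known. Named genes were all members, up to 4 called genes per list, and the 5 genes most like A2M, TIMP2 and TFPI. TIMP4, PZP, RECK and CD109 were named after their values were seen.

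Replicate pairs within a group differed by a chi-square per degree of freedom of 22.0 to 154, so none was 1 library deposited more than once. Deviations of same-numbered parental libraries from their group means correlated at 0.570, 0.201 and 0.280, all over 0.1, and the numbers were taken to pair these libraries. So did AAVS1 libraries between DDX3Xoe and parental cells (0.698, 0.385 and 0.416) and between DDX3Yoe and parental cells (0.213, 0.120 and 0.344), which were taken as paired too. Between guides not every pair passed 0.1 in DDX3Yoe cells (0.0745, 0.114 and 0.238) or DDX3Xoe cells (0.231, -0.0279 and 0.300), nor between DDX3Yoe and DDX3Xoe cells with AAVS1 (0.227, 0.0645 and 0.386) or with guide 395 (0.0293, 0.170 and 0.0931). All intervals and adjusted p-values given come from the limma fit without a term for the replicate number. Spread that follows the number therefore stayed in them and may widen them. With such a term 677 genes were called in parental cells, against 271 without it.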

Additional observations from a re-analysis of the deposited data

How the results depend on the processing

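None of the tested members was called in any of the 7 tested comparisons under any alternative: other pseudocounts (0.1 and 5), no filter, a filter of 50, median-centring, a replicate block, the compared groups alone, edgeR, DESeq2, leaving out each library, and leaving out both replicate 1 libraries labelled DDX3Xoe. The lowest limma, edgeR or DESeq2 adjusted p of a member was 0.953 over 753 values for the guide comparisons and their difference, of which 49 changed sign, and 0.808 over 892 values between lines, of which 62 changed sign. The causes of these changes were not tested.

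In parental cells 271 genes were called. The count was 159 with no filter, 677 with the replicate block, 83 with the compared groups alone and 927 with DESeq2, and 60 (without the AAVS1 replicate 2 library of parental cells) to 404 (without the AAVS1 replicate 2 library of DDX3Xoe cells) when single libraries were left out. The replicate block changed no member's call in the tested comparisons. With no filter, 1 gene was called for guide 395 in DDX3Yoe cells, 3 for DDX3Yoe against DDX3Xoe cells with AAVS1, 1 for the same with guide 395 and 2 for DDX3Yoe against parental cells, each against 0. The parental log2 differences ranged over all alternatives from -1.24 to -0.90 for TIMP2, -1.79 to -1.24 for TFPI, 1.07 to 1.68 for TFPI2, -2.06 to -1.03 for TIMP3, 0.14 to 0.51 for TIMP1 and 0.35 to 0.75 for MMP14. They changed sign for A2M (-0.68 to 0.13), LRP1 (-0.74 to 0.35) and SERPINE2 (-0.38 to 0.78) when a single library was left out, and for SERPINE2 also with edgeR (-0.096) and DESeq2 (-0.091).

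Signs turned for TIMP3 in DDX3Xoe cells with a pseudocount of 0.1 (-0.65), for MMP14 in DDX3Xoe cells with median-centring (0.0071), and for TFPI in DDX3Yoe cells with edgeR (0.0097) and DESeq2 (0.0090). Without both replicate 1 libraries, LRP1 was at 0.13, TIMP3 at -0.058, TFPI at -0.024 and TFPI2 at -0.10 in DDX3Xoe cells, and the DDX3Yoe minus DDX3Xoe difference was -0.0040 for LRP1 and 0.022 for TFPI. Leaving out single libraries gave, in DDX3Yoe cells, -0.50 to 0.22 for A2M, -0.029 to 0.37 for LRP1, -0.12 to 0.18 for TFPI, -0.40 to 0.10 for TFPI2 and -0.75 to 0.21 for SERPINE2. In DDX3Xoe cells it gave -0.20 to 0.53 for A2M, -0.13 to 0.055 for TIMP1, -0.28 to 0.049 for TIMP2, -0.75 to 1.38 for TIMP3, -0.14 to 0.19 for TFPI, -0.25 to 0.65 for SERPINE2 and -0.42 to 0.46 for MMP14. For the difference it gave -0.67 to 0.074 for A2M, -0.23 to 0.026 for TIMP1, -0.31 to 0.040 for TIMP2, -0.19 to 0.15 for TFPI, -0.91 to 0.082 for SERPINE2 and -0.28 to 0.60 for MMP14. Depth limits TIMP3 and MMP2, with at most 21 and 7 reads in a library.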
